A study of Mus musculus with 35 samples.

Results

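The 35 genes described here form the transcriptional program of ATF4, the transcription factor that cells make when eIF2 is phosphorylated under amino acid shortage, endoplasmic reticulum stress or mitochondrial stress. They were chosen by name, as known ATF4 targets and their partners, from the 31053 genes of the count files, and all 35 were found there. By role, 8 are transcription factors and feedback genes (Atf4, Atf5, Ddit3, Trib3, Chac1, Sesn2, Cebpb, Eif4ebp1), 8 make amino acids or feed the folate-bound one-carbon pool (Asns, Phgdh, Psat1, Psph, Shmt2, Mthfd2, Aldh18a1, Pycr1), 7 are amino acid carriers or surface receptors (Slc7a1, Slc7a5, Slc7a11, Slc3a2, Slc1a5, Slc38a2, Vldlr), and 12 are tRNA synthetases of the cytosol (Aars, Cars, Eprs, Gars, Iars, Lars, Mars, Nars, Sars, Tars, Wars, Yars).

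Phosphorylated eIF2 slows protein synthesis in general but lets ribosomes reach the ATF4 reading frame, so that the ATF4 protein can increase without any increase of its mRNA. ATF4 pairs with C/EBP proteins on C/EBP-ATF response elements, and turns on amino acid synthesis, amino acid uptake and tRNA charging. mTORC1 also drives ATF4 translation. Folliculin, the product of Flcn, works with the Rag GTPases to let mTORC1 phosphorylate TFEB and TFE3 and hold both factors in the cytoplasm, and TFEB and TFE3 bind E-box sequences in front of lysosomal genes. The proximal tubule of the kidney makes serine, the product of Phgdh, Psat1 and Psph.

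The libraries were 3′ mRNA sequencing of whole kidneys from C57BL/6 mice at postnatal day 2, each labelled as a biological replicate. In the first cross, 5 Flcn KO kidneys (labelled Flcn-KO) were set against 5 controls (control_Flcn). In the second, 4 Flcn/Tfeb DKO kidneys (DKO_Flcn-Tfeb) were set against 3 controls (control_Flcn-Tfeb). In the third, 10 Flcn/Tfe3 DKO kidneys (DKO_Flcn-Tfe3) were set against 8 controls (control_Flcn-Tfe3). Floxed Flcn, and in the second cross floxed Tfeb, was recombined by a Cre under the Cdh16 (Ksp) promoter, which acts in collecting duct, distal tubule and thick ascending limb, whereas Tfe3 was null in every cell of the third DKO. The study describes controls as carrying floxed Flcn without naming Cre, and the labels give the controls only by their cross. Most cells of a whole kidney, including the proximal tubule, therefore keep both genes in the first and second cross. The first and second cross are called set A, and the third came as 2 count tables with their own controls, called set B (3 controls, 6 DKO) and set C (5 controls, 4 DKO), so that cross and set cannot be told apart for the third cross.

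Libraries held 1652649 to 4239356 counts on genes (median 2992169), so that 3 counts corresponded to 0.708 to 1.82 CPM, the counts of a gene scaled to a common library total of 1e+06. Kidney markers were present throughout, with Slc34a1, the phosphate carrier of the proximal tubule, at 492 to 1099 CPM and Cdh16 at 177 to 407 CPM. The targeted genes gave no check of the labels, as their levels overlapped between groups. The place of the 3′ reads relative to the deleted exons, and the part of cells without Cre, were not tested. Flcn was at 11.9 to 16.4 CPM in the control_Flcn libraries and at 10.3 to 18.8 CPM in those labelled Flcn-KO. In set B, Tfe3 was at 15.3 to 24.8 CPM in the control_Flcn-Tfe3 libraries and 12.4 to 24.6 CPM in those labelled DKO_Flcn-Tfe3. In set C, Tfe3 was at 17.5 to 19 CPM in controls and 15.8 to 18.9 CPM in the DKO, and Tfeb was at 7.01 to 19.5 CPM in the control_Flcn-Tfeb libraries and 6.48 to 7.94 CPM in those labelled DKO_Flcn-Tfeb. Flcn overlapped between controls and DKO in the Flcn/Tfeb and Flcn/Tfe3 crosses as well, at 8 to 16.1 CPM and 6.34 to 16.9 CPM. Replicate 3 of control_Flcn-Tfeb stood apart. Its mitochondrial genes took 4.47% of counts, against 9.16% and 10.7% in the other controls of that cross and 10.4% to 11.9% in the DKO, and its 4 collecting duct markers summed to 752 CPM, against 271 and 252 CPM and 287 to 349 CPM. Tested members named in that cross are given with and without it.

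The promoters of members carry the letters ATF4 dimers are known to bind more often than promoters at large. RefSeq promoter windows (GRCm38.p6, 250 bases before to 50 after the annotated start) could be matched to 28 of the 35 members, in 32 windows. TGATGNAA, the C/EBP-ATF response element, read on both strands, was found for 11 of the 28 members (39.3%) and for 1219 of all 27025 genes with a window (4.51% of genes, 3.97% of windows). Those 11 were Aars, Asns, Chac1, Gars, Iars, Pycr1, Slc7a11, Tars, Trib3, Vldlr and Yars. The E-box CACGTG was found for 4 of the 28 (14.3%) and for 8.09% of all genes (7.15% of windows), and TCACGTGA, the core of the lysosomal CLEAR element, which contains CACGTG, for Aars alone among members (3.57%) and for 1.12% of all genes (0.974% of windows). The members were chosen as ATF4 targets, so the first count describes the choice of genes rather than testing it. The stretches run 5′ to 3′ on the strand of the gene with the matched letters in capitals, and they were picked because these genes anchor the comparisons: Asns (chr6:7693205-7693252, minus strand), Trib3 (chr2:152344019-152344066, minus), Chac1 (chr2:119351029-119351076, plus) and Slc7a11 (chr3:50443633-50443699, minus) as ATF4 targets with few counts in these kidneys, Aars (chr8:111033675-111033878, plus) and Tars (chr15:11399614-11399693, minus) as members with both kinds of letters, and Gdf15 (chr8:70632153-70632198, minus), which is no member, for its result in the first cross.
Asns: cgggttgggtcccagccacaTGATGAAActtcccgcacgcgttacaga
Trib3: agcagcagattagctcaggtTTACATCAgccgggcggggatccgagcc
Chac1: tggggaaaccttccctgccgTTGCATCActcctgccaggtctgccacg
Slc7a11: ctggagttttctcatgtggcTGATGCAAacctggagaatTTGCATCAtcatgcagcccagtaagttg
Aars: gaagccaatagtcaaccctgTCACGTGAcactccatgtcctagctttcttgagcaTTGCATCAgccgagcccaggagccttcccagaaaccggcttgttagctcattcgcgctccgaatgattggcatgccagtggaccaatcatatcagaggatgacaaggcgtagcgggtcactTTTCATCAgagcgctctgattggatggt
Tars: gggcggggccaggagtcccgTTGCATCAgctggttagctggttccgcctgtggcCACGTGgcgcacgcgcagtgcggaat
Gdf15: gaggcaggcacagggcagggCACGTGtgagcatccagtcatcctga

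A match is only a run of letters in a 300-base window. Of the genes printed, Asns, Trib3, Chac1 and Slc7a11 hold response element letters without CACGTG, Aars and Tars hold both, and Gdf15 holds CACGTG without TGATGNAA. Iars, a member that is not printed, also holds both.

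The question put to the members was whether loss of Flcn in the Ksp-Cre cells, alone or with Tfeb or Tfe3, moved the ATF4 program in the newborn kidney. Counts were tested with edgeR's quasi-likelihood F test, two-sided, with Benjamini-Hochberg adjustment over every gene tested, and calls were made where the adjusted p fell under 0.05. Of the 35 members, 32 passed the filter on low counts in each comparison. No member was called in any of the 3 crosses, and without the filter, with all 35 tested, 0 were called as well. In bulk kidney, fewer cells of a type and less RNA per cell cannot be told apart, and a change in the Ksp-Cre cells is diluted by all other cells. Replicates are whole kidneys, so p-values measure the spread between them.

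The 3 members that did not pass the filter were Trib3, the pseudokinase that feeds back on ATF4, Chac1, the glutathione-degrading enzyme, and Slc7a11, the cystine carrier. Trib3 had 0 to 18 counts and was at 0 in 11 of the 35 libraries. Chac1 had 0 to 8 counts and was at 0 in 14 libraries, and Slc7a11 had 0 to 10 counts and was at 0 in 4. The highest Trib3 and Chac1 levels were both in replicate 1 of the set B controls, at 4.3 CPM and 1.91 CPM, while the other libraries reached at most 2.54 CPM of Trib3 and 1.43 CPM of Chac1. In the Flcn cross Trib3 was at 0, 0, 0.531, 1.48 and 2.35 CPM in controls and at 0.964, 0.574, 0, 0.627 and 1.17 CPM in the KO. In the Flcn/Tfeb cross it was at 1.75, 0.584 and 0 CPM in controls and at 2.38, 0.648, 0 and 1.57 CPM in the DKO. In the Flcn/Tfe3 cross it was at 0 to 4.3 CPM (median 0.63, n = 8) in controls and 0 to 2.54 CPM (median 0.736, n = 10) in the DKO. Trib3 thus spread from 0 upwards in control and knockout libraries alike. Chac1 was above 0 in 1 of the 5 Flcn controls (0.742 CPM) and in 2 of the 5 KO (1.43 and 0.368 CPM), and in 1 of the 3 Flcn/Tfeb controls (1.17 CPM) and 2 of the 4 DKO (0.397 and 0.381 CPM). In the Flcn/Tfe3 cross Chac1 was at 0 to 1.91 CPM (median 0.457, n = 8) in controls and 0 to 1.34 CPM (median 0.583, n = 10) in the DKO. These genes are strongly induced in acute ATF4 responses, and here their median counts per library were 2 for Trib3, 1 for Chac1 and 3 for Slc7a11. Without the filter their 95% intervals on the log2 scale were wide. In the Flcn/Tfeb cross they ran from -1.82 to 3.33 for Trib3, from -4.0 to 2.98 for Chac1 and from -3.35 to 1.16 for Slc7a11. In the Flcn/Tfe3 cross they ran from -1.93 to 0.98, from -1.55 to 1.43 and from -1.12 to 1.07 in turn.

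Flcn KO kidneys differed little from their controls in the ATF4 program. Among the 32 members tested, 0 were called, beside 62 of 11932 genes (0.52%), and 1 member had an unadjusted p under 0.05, beside 9.07% of all genes. DESeq2 called 0 members as well. Log2 fold changes were above 0 for 10 members and below 0 for 22, with a median of -0.06 (all genes -0.01). For 29 of the 32, the 95% interval lay within a doubling or a halving, and the other 3 intervals reached a halving. No member had groups that did not overlap, beside 2.4% of genes.

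Atf4 itself, which codes for the factor that names the program, was at 292, 255, 262, 200 and 226 CPM in the control libraries and at 280, 322, 266, 305 and 271 CPM in the Flcn KO. The KO libraries lay in the upper part of the control range or above it, and the groups overlapped. Its log2 fold change was 0.23 (SE 0.12, n = 5 and 5), with an adjusted p of 0.6 by edgeR and a 95% interval from -0.03 to 0.48. Ddit3, which codes for the stress factor CHOP, was at 30.5, 25, 32.9, 12.4 and 19.1 CPM in controls and at 33.3, 31.8, 31.3, 44.5 and 18.5 CPM in the KO. The 2 lowest Ddit3 values of the controls belonged to replicates 4 and 5, which also had the lowest mitochondrial shares of that group, 4.88% and 4.93%, against 9.98% to 11.1% in replicates 1 to 3. The log2 fold change of Ddit3 was 0.43 (SE 0.25, adjusted p = 0.63 by edgeR), and its 3′ end overlaps that of Mars on the opposite strand (Ddit3 at chr10:127290774-127296288, plus; Mars at chr10:127296221-127311786, minus; mm10), while the strand setting of the counting is not given in the sources used here. Atf5, a related stress factor, was at 34.3, 49.1, 39.8, 23.5 and 44.6 CPM in controls and at 58.3, 41.3, 39.4, 40.8 and 43.1 CPM in the KO, with a log2 fold change of 0.23 (SE 0.18). Of the 6 factors and feedback genes tested, 5 were above 0, and none passed the test.

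**Figure D1:**
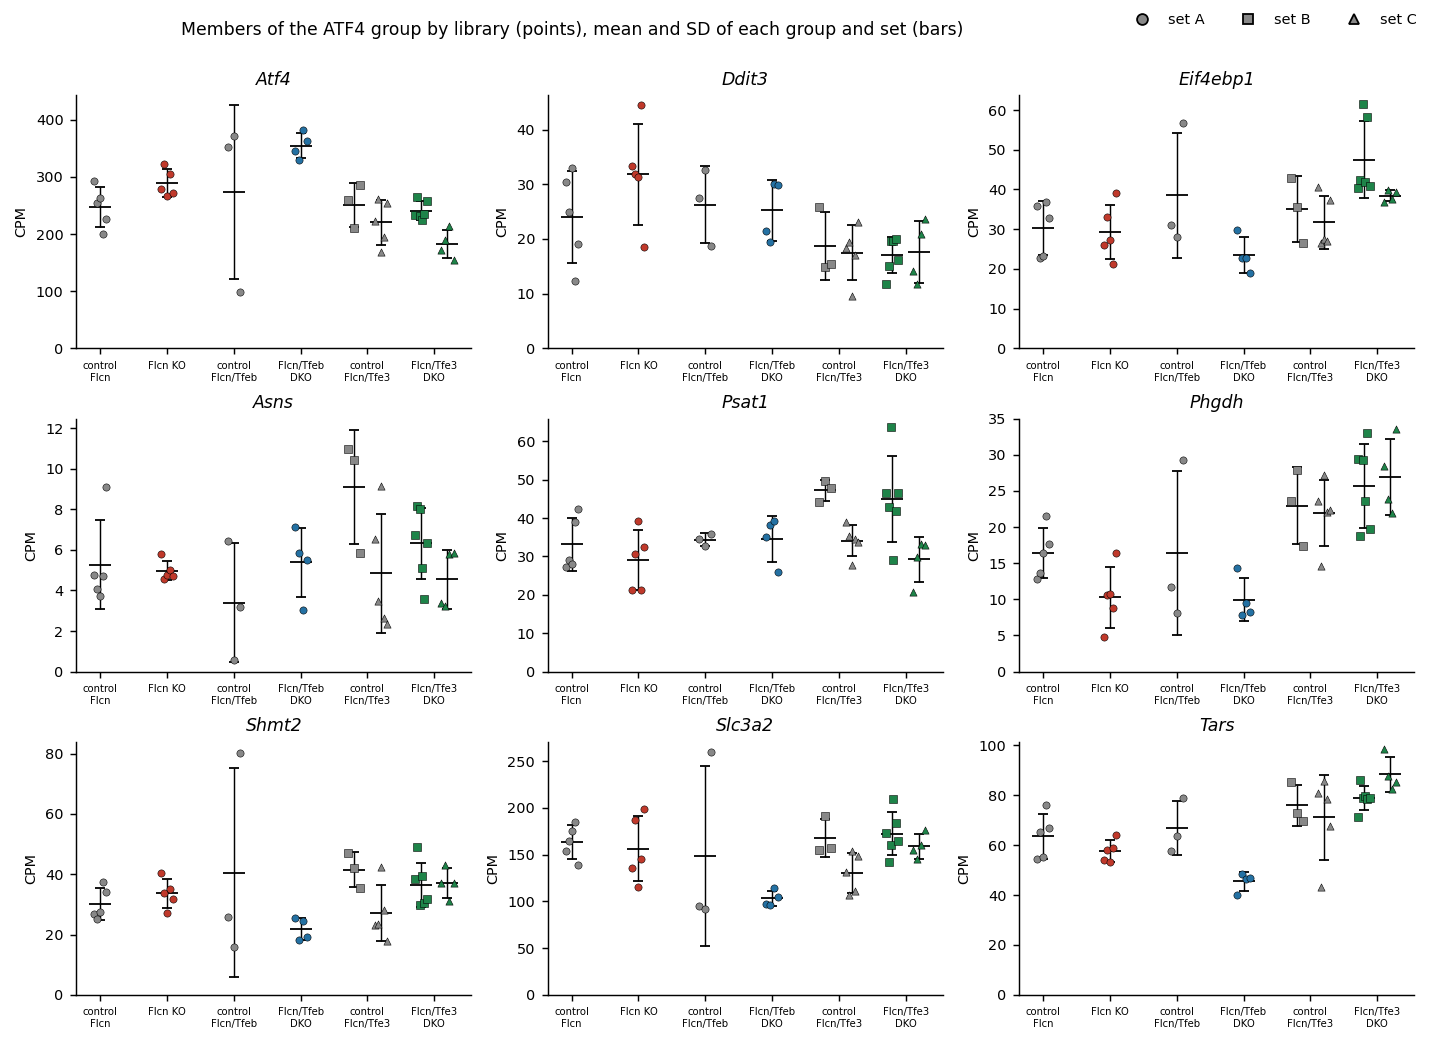
Level in CPM (vertical axes, linear) of 9 members in each of the 35 libraries, by group (horizontal axis), with circles for set A, squares for set B, triangles for set C, and bars for the mean and SD of each group and set. Controls and knockouts overlap in every panel except Tars in the Flcn/Tfeb cross, and 1 control of that cross lies far from the others for Atf4 (98.9 CPM), Shmt2 (80.2 CPM) and Slc3a2 (260 CPM).

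Among the biosynthetic genes of the same cross, Phgdh, which opens serine synthesis from glycolysis, had the lowest p of all members. Phgdh was at 12.9, 13.6, 16.5, 21.5 and 17.6 CPM in controls and at 4.82, 10.6, 10.7, 8.78 and 16.4 CPM in the KO. In 4 of the 5 KO libraries it lay below the lowest control, and the fifth lay within the control range. The 6 proximal tubule markers summed to 2623 to 3317 CPM in the KO against 3303 to 3956 CPM in controls, with 5 of 6 below 0 (median -0.19) and 0 called, and their part in the level of Phgdh was not tested. The means were 16.4 ± 3.46 CPM (SD, n = 5) and 10.3 ± 4.19 CPM (SD, n = 5), a log2 fold change of -0.65 (SE 0.25, 95% interval -1.19 to -0.12) with an unadjusted p of 0.0199 and an adjusted p of 0.423 by edgeR's quasi-likelihood test. Psat1, the next enzyme of the serine pathway, was at 27.1, 29.1, 28.1, 39.1 and 42.3 CPM in controls and at 21.2, 30.7, 39.4, 21.3 and 32.6 CPM in the KO, with broad overlap (log2 fold change -0.19, SE 0.19). Asns, which makes asparagine and is the most used reporter of ATF4 activity, was at 4.76, 4.09, 3.72, 4.7 and 9.1 CPM in controls and at 5.78, 4.59, 4.78, 5.02 and 4.69 CPM in the KO. Apart from control replicate 5, all Asns values lay between 3.72 and 5.78 CPM, and the log2 fold change was -0.14 (SE 0.30, 95% interval -0.76 to 0.49). Of the 8 biosynthetic genes, 7 were below 0 (median -0.16).

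The carriers and synthetases of the Flcn cross gave the same picture of small differences. Of the 6 carriers and receptors tested, 5 were below 0 (median -0.08), and of the 12 synthetases 9 were below 0 (median -0.06). Wars, the tryptophan synthetase, had the lowest of these values and was at 10.5, 18.6, 20.2, 24.7 and 29.9 CPM in controls and 8.68, 18.1, 12.5, 10.7 and 24.3 CPM in the KO. Its log2 fold change of -0.46 (SE 0.28) had an adjusted p of 0.638 by edgeR. Lars, the leucine synthetase, was at 57.2, 42.3, 51.5, 77.2 and 81.9 CPM in controls and at 57.8, 54.2, 56.7, 42.6 and 54.9 CPM in the KO. Its 2 highest values were those of control replicates 4 and 5, the libraries with the low mitochondrial shares.

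In the Flcn/Tfeb cross, 3 of the 4 members with an unadjusted p under 0.05 lost it without 1 control library. Of the 32 members tested, 0 were called, beside 0 of 12469 genes (0%), by edgeR, and DESeq2 called 0 members too. At an unadjusted p under 0.05 there were 4 members, all lower in the DKO, beside 5.07% of all genes: Eif4ebp1, Lars, Tars and Wars. Values were above 0 for 9 members and below 0 for 23, with a median of -0.18 (all genes -0.02). Without control replicate 3, 1 member (Tars) had an unadjusted p under 0.05, 19 were above 0 and 13 below, and the median was 0.05. Intervals were wide, with 18 of 32 within a doubling or a halving.

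Eif4ebp1, which codes for the translation repressor 4E-BP1, a substrate of mTORC1, was at 31, 28 and 56.6 CPM in the controls and at 29.8, 22.7, 22.8 and 18.9 CPM in the DKO. Its log2 fold change was -0.74 (SE 0.28, unadjusted p = 0.0227, adjusted p = 0.798 by edgeR), and -0.33 without replicate 3. With the mitochondrial share as a covariate it was -0.05. Replicate 3 was also the high library for Shmt2, the mitochondrial serine hydroxymethyltransferase, at 80.2 CPM against 25.7 and 15.8 CPM, with 25.4, 18.2, 24.4 and 19.3 CPM in the DKO. Shmt2 had a log2 fold change of -0.95 (SE 0.45) with replicate 3 and 0.08 without it. Slc3a2, the heavy chain of the large neutral amino acid carrier, was at 94.6, 91.7 and 260 CPM in controls and at 97.3, 96.6, 114 and 105 CPM in the DKO, and its value moved from -0.55 to 0.14. Slc7a5, the light chain of that carrier, spread widely, at 12.3, 2.92 and 21.3 CPM in controls and at 7.15, 1.3, 8.38 and 4.33 CPM in the DKO, and it had the lowest log2 fold change of the members (-1.21, SE 0.60, 95% interval -2.53 to 0.12), and -0.46 without replicate 3. Phgdh was at 11.7, 8.17 and 29.3 CPM in controls and at 14.3, 7.78, 9.52 and 8.26 CPM in the DKO, a log2 fold change of -0.78 with replicate 3 and 0.01 without it.

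Atf4 went the other way in that library. Atf4 was at 353, 371 and 98.9 CPM in the controls and at 344, 330, 381 and 363 CPM in the DKO, so that replicate 3 held the lowest Atf4 level of all 35 libraries while its levels of Shmt2, Slc3a2 and Lars were the highest. The log2 fold change of Atf4 was 0.37 (SE 0.36, 95% interval -0.42 to 1.15) with that library and -0.03 without it. Asns was at 6.43, 0.584 and 3.16 CPM in controls and at 7.15, 5.84, 3.05 and 5.51 CPM in the DKO, where the low control was replicate 2 with 1 count, and its log2 fold change of 0.65 had a 95% interval from -0.67 to 1.96 (0.59 without replicate 3). Psat1 was at 34.5, 32.7 and 35.9 CPM in controls and at 35, 38.3, 39.2 and 26 CPM in the DKO, a log2 fold change of -0.01 (SE 0.21), and 0.03 without replicate 3. Ddit3 was at 27.5, 32.7 and 18.7 CPM in controls and at 21.5, 19.5, 30.1 and 29.9 CPM in the DKO, with a log2 fold change of -0.04 (SE 0.26), and -0.24 without replicate 3. Replicate 3 was the lowest control for Ddit3 as for Atf4.

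**Figure D2:**
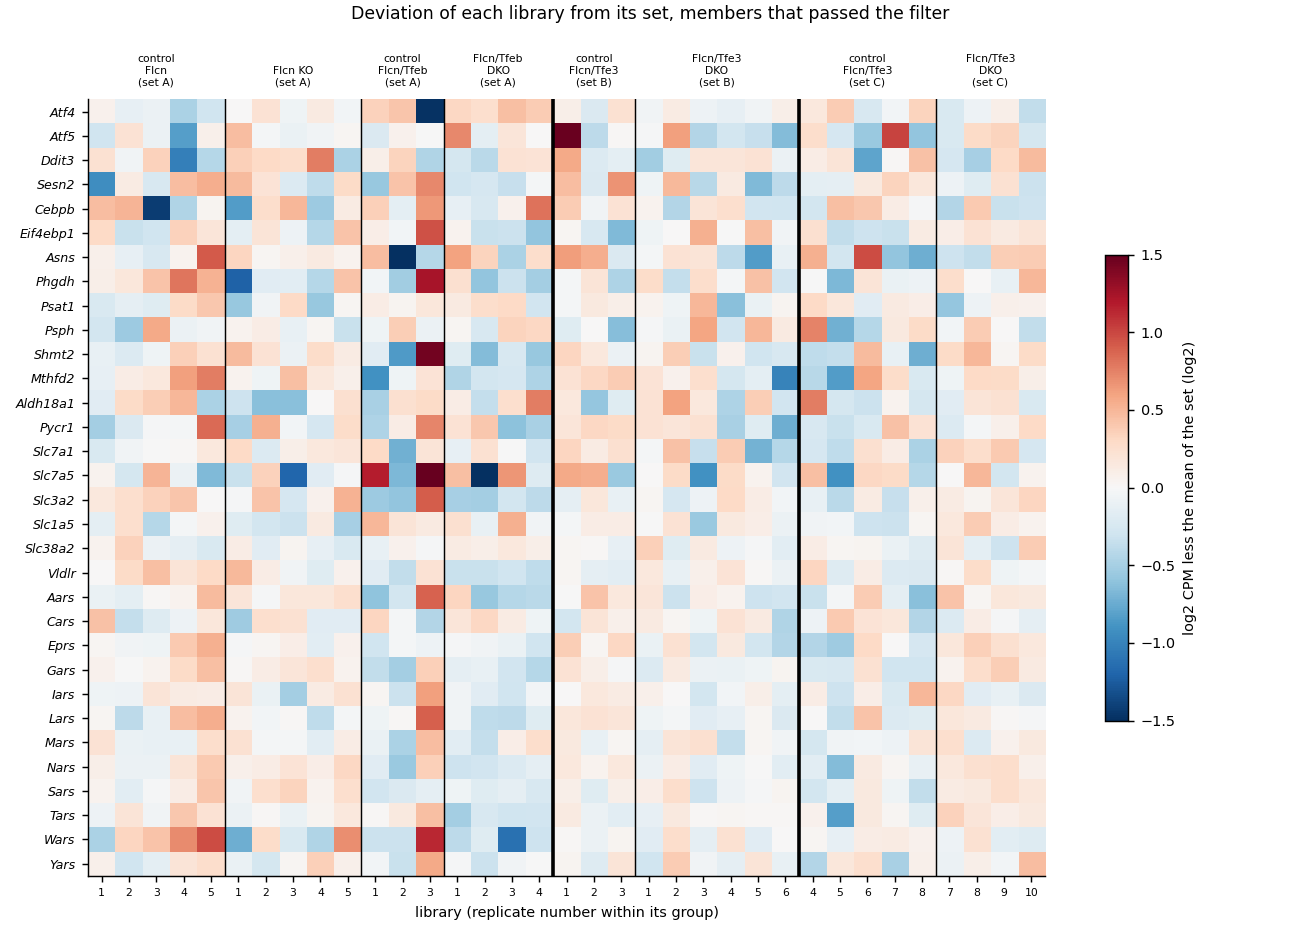
Deviation of the log2 CPM of each of the 32 tested members (vertical axis, by role) from the mean of its set, in each of the 35 libraries (horizontal axis, by group and replicate number), in log2 units from blue (below the set) through white to red (above it). Replicate 3 of the Flcn/Tfeb controls is blue for Atf4 (98.9 CPM) and red for Eif4ebp1, Phgdh, Shmt2, Slc3a2, Lars and Wars, and replicate 1 of the set B controls is red for Atf5 (142 CPM).

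Among the synthetases of this cross, Tars kept its direction, with an unadjusted p under 0.05, without replicate 3. Tars, which charges threonine, was at 57.8, 63.6 and 78.8 CPM in the controls and at 40.1, 48.6, 46.5 and 46.8 CPM in the DKO, and the groups did not overlap. The log2 fold change was -0.57 (SE 0.18, unadjusted p = 0.00769, adjusted p = 0.798 by edgeR), and -0.43 (SE 0.16, unadjusted p = 0.0153, adjusted p = 0.932) without replicate 3. With the mitochondrial share as a covariate it was -0.40 (SE 0.20, unadjusted p = 0.07, adjusted p = 0.659), no longer under an unadjusted p of 0.05. Groups failed to overlap for 2 members, Tars (lower in the DKO) and the glutamine carrier Slc38a2 (higher, at 175, 197 and 186 CPM in controls and 205, 201, 211 and 201 CPM in the DKO, log2 fold change 0.13 with and without replicate 3), beside 5.65% of genes. Lars was at 53.2, 56.6 and 105 CPM in controls and at 54, 42.8, 42.3 and 49.2 CPM in the DKO (log2 fold change -0.63 with replicate 3, -0.22 without it). With the mitochondrial share as a covariate the log2 fold change of Lars was -0.0084. Wars was at 11.7, 11.7 and 33.3 CPM in controls and at 11.1, 13, 6.47 and 11.8 CPM in the DKO (-0.92 with replicate 3, -0.17 without it). Of the 12 synthetases, 9 were below 0 with all libraries (median -0.21).

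The Flcn/Tfe3 cross had the most libraries, and its members were the most tightly measured. Of the 32 members tested, 0 were called, beside 48 of 12456 genes (0.385%), and 1 had an unadjusted p under 0.05, beside 7.15% of all genes. DESeq2 also called 0 members. All 32 intervals lay within a doubling or a halving, 18 members were above 0 and 14 below, and the median log2 fold change was 0.04 (all genes 0.01). This balance turned with the set: 11 members were above 0 and 21 below in set B alone (median -0.10), and 20 above and 12 below in set C alone (median 0.07). With the mitochondrial share as a covariate it was 15 above and 17 below (median -0.02). No member had groups that were apart in the same direction in both sets, beside 0.305% of genes.

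Eif4ebp1 had the lowest p of the members, with a mean that was higher in the DKO. In set B it was at 43, 35.6 and 26.4 CPM in controls and at 40.3 to 61.6 CPM (median 42.1, n = 6) in the DKO, and in set C at 40.7, 26.4, 27.5, 27 and 37.2 CPM in controls and at 36.9, 39.9, 37.7 and 39.4 CPM in the DKO. The DKO libraries lay in the upper part of the control range or above it in both sets. The log2 fold change was 0.37 (SE 0.13, 95% interval 0.10 to 0.63, unadjusted p = 0.00846, adjusted p = 0.416 by edgeR), and it was 0.44 within set B and 0.25 within set C. Atf5 had the lowest log2 fold change, -0.42 (SE 0.25), and -0.0067 (SE 0.22) without replicate 1 of the set B controls. That library was at 142 CPM against 38.3 and 50.9 CPM, with 31.9 to 77.9 CPM (median 40.6, n = 6) in the DKO of that set. In set C, Atf5 was at 31.1, 21.5, 17.3, 52.8 and 16.8 CPM in controls and at 22, 31.6, 32.5 and 21.3 CPM in the DKO.

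Atf4 was at 259, 210 and 286 CPM in the set B controls and at 224 to 264 CPM (median 234, n = 6) in their DKO, and at 224, 261, 169, 195 and 254 CPM in the set C controls and 172, 190, 214 and 155 CPM in their DKO. Control and DKO values overlapped in both sets, and the log2 fold change was -0.16 (SE 0.10, 95% interval -0.37 to 0.05). Asns was at 11, 10.4 and 5.87 CPM in the set B controls against 3.56 to 8.15 CPM (median 6.54, n = 6), and at 6.56, 3.47, 9.16, 2.66 and 2.35 CPM in the set C controls against 3.38, 3.21, 5.78 and 5.84 CPM. Its log2 fold change was -0.34 (SE 0.26, 95% interval -0.88 to 0.20). Phgdh was at 23.7, 27.9 and 17.3 CPM in the set B controls against 18.7 to 33.0 CPM (median 26.5, n = 6), and at 23.6, 14.6, 27.1, 22 and 22.3 CPM in the set C controls against 28.4, 23.8, 21.9 and 33.6 CPM, a log2 fold change of 0.23 (SE 0.15). Psat1 was at 44.2, 49.7 and 47.7 CPM in the set B controls against 29.0 to 63.8 CPM (median 44.6, n = 6), and at 38.9, 35.4, 27.8, 34.6 and 33.7 CPM in the set C controls against 20.8, 30, 33.1 and 33 CPM, a log2 fold change of -0.13 (SE 0.13). Ddit3 was at 25.8, 14.8 and 15.5 CPM in the set B controls against 11.8 to 20.1 CPM (median 17.9, n = 6), and at 18.4, 19.5, 9.52, 17.1 and 23.1 CPM in the set C controls against 14.1, 11.8, 21 and 23.6 CPM, a log2 fold change of -0.05 (SE 0.18). Control and DKO values of Asns, Phgdh, Psat1 and Ddit3 overlapped in both sets.

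By role, the members of the Flcn/Tfe3 cross split without any passing the test. Of the 6 factors and feedback genes, 5 were below 0 (median -0.22), Eif4ebp1 being the exception. Of the 6 carriers and receptors, 5 were above 0 (median 0.09), of the 8 biosynthetic genes 4 were above 0 (median 0.01), and of the 12 synthetases 8 were above 0 (median 0.05). The synthetases were split by set, with 8 of the 12 below 0 in set B alone (median -0.08) and 9 above 0 in set C alone (median 0.23). Eprs, the glutamate and proline synthetase, had a log2 fold change of -0.34 in set B alone and 0.36 in set C alone, each with an unadjusted p under 0.05. Eprs was at 229, 181 and 219 CPM in the set B controls against 130 to 207 CPM (median 156, n = 6) in their DKO, and at 162, 151, 270, 220 and 184 CPM in the set C controls against 247, 280, 260 and 245 CPM in theirs. No member was called in set B alone, where 8 of 13191 genes were called, or in set C alone, where 569 of 12169 were. In set C the red blood cell markers summed to 1465 to 1957 CPM in the DKO against 2147 to 6331 CPM in controls. The thick ascending limb markers summed to 961 to 1006 CPM against 617 to 812 CPM, and the other marker sums overlapped. The mitochondrial share was 2.72% to 4.27% against 3.01% to 7.80%. Depth differed as well, with 3159884 to 3555791 counts on genes in the set C DKO against 1719367 to 2909353 in controls. The share of reads that the counting placed in no gene was 7.92% to 10.5% against 8.78% to 18.4%. The part of these differences in the set C values was not tested.

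**Figure D3:**
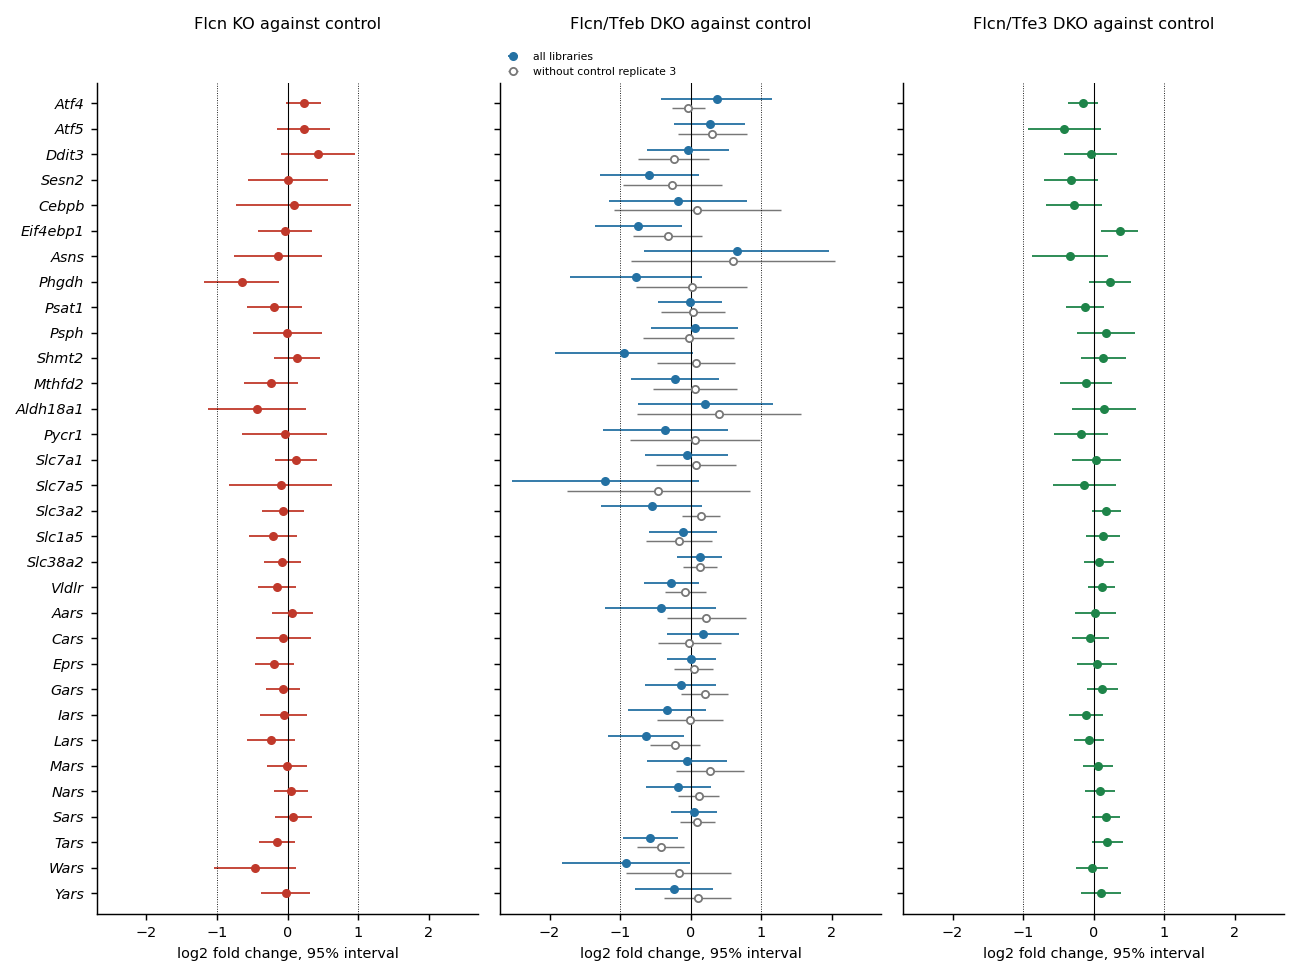
Log2 fold change with its 95% interval (horizontal axes, log2 units) of the 32 tested members (vertical axis, by role) in the Flcn KO, Flcn/Tfeb DKO and Flcn/Tfe3 DKO against the controls of their cross, with dotted lines at a doubling and a halving and open grey points for the Flcn/Tfeb cross without control replicate 3. Most intervals cover 0, all 32 in the Flcn/Tfe3 panel lie between the dotted lines, and the open grey points lie closer to 0 than the blue ones for Shmt2, Phgdh, Lars, Wars and Slc3a2.

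Interaction terms tested whether the effect of 1 cross differed from that of another. Of the 32 members, 0 were called for the Flcn/Tfeb effect less the Flcn effect (0.0153% of 13049 genes called), 0 for the Flcn/Tfe3 effect less the Flcn effect (0% of 13209) and 0 for the Flcn/Tfe3 effect less the Flcn/Tfeb effect (0.022% of 13637), and DESeq2 called 0 in each. At an unadjusted p under 0.05 there were 3 members in the first (beside 5.95% of genes), 3 in the second (7.4%) and 8 in the third (12.2%). With only 1 of the sets in the fit, the Flcn/Tfe3 effect less the Flcn effect had 0 genes called and a median over the members of -0.08 with set B, and 459 genes called and a median of 0.22 with set C, with 0 members called in both. The 3 tests share groups and are not independent of each other.

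For the Flcn/Tfe3 effect less the Flcn effect, the 3 members were Phgdh, Atf4 and Tars. Phgdh had a log2 difference of 0.88 (SE 0.28, unadjusted p = 0.00392, adjusted p = 0.661 by edgeR), made of -0.65 in the Flcn cross and 0.23 in the Flcn/Tfe3 cross. Atf4 had a log2 difference of -0.38 (SE 0.16, unadjusted p = 0.0232, adjusted p = 0.661), made of 0.23 and -0.16, and Tars one of 0.34 (SE 0.17). Tars was at 54.3, 65.5, 55.2, 76.2 and 66.9 CPM in the Flcn controls and at 54, 58.2, 53.3, 58.9 and 64.2 CPM in the KO, and at 43.1 to 85.6 CPM in the 8 Flcn/Tfe3 controls and 71.1 to 98.5 CPM in the 10 DKO, with overlap in both crosses. For the Flcn/Tfeb effect less the Flcn effect, Shmt2 (-1.10), Eif4ebp1 (-0.71) and Tars (-0.43) had an unadjusted p under 0.05, and without control_Flcn-Tfeb replicate 3 no member did. Leaving out each library in turn put Shmt2 between -1.46 and -0.05, Eif4ebp1 between -0.90 and -0.28, and Tars between -0.51 and -0.27. In the Flcn cross Shmt2 was at 26.7, 25, 27.6, 37.4 and 34.0 CPM in controls and at 40.5, 33.9, 27.2, 35.1 and 31.7 CPM in the KO, and Eif4ebp1 at 35.7, 22.7, 23.4, 36.9 and 32.9 CPM in controls and at 26, 33, 27.2, 21.3 and 39 CPM in the KO, both with overlap.

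For the Flcn/Tfe3 effect less the Flcn/Tfeb effect, 8 members had an unadjusted p under 0.05, all with a positive difference: Eif4ebp1 (1.10), Shmt2 (1.07), Phgdh (1.0), Wars (0.89), Tars (0.75), Slc3a2 (0.71), Lars (0.55) and the reelin receptor Vldlr (0.37). Vldlr was at 81.8, 71.2 and 108 CPM in the Flcn/Tfeb controls and at 73.1, 73.3, 74.6 and 70.8 CPM in the DKO, where the highest control was replicate 3, and at 79.2 to 121 CPM in the 8 Flcn/Tfe3 controls and 81.2 to 117 CPM in the 10 DKO. In the Flcn/Tfeb cross the log2 fold change of Vldlr was -0.27 with replicate 3 and -0.08 without it. In the Flcn/Tfe3 cross Shmt2 was at 18 to 47.1 CPM (median 31.8, n = 8) in controls and 29.8 to 48.9 CPM (median 37.1, n = 10) in the DKO. Slc3a2 was at 106 to 192 CPM (median 151) in these controls and 142 to 210 CPM (median 163) in the DKO. Lars was at 50 to 87.4 CPM (median 67.0) and 52.5 to 73.2 CPM (median 61.1), and Wars at 18.8 to 28.8 CPM (median 22.3) and 17.8 to 33.8 CPM (median 24.9). All of these ranges overlapped between controls and DKO. Eif4ebp1 had the lowest p of all members in any comparison, with an SE of 0.27, an unadjusted p of 0.000379 and an adjusted p of 0.259 by edgeR. Without control_Flcn-Tfeb replicate 3, Eif4ebp1 (0.69) and Tars (0.61) had an unadjusted p under 0.05, and the median over the members moved from 0.19 to -0.03. With each library left out in turn, Shmt2 ranged from 0.05 to 1.43, Phgdh from 0.21 to 1.30 and Wars from 0.14 to 1.13. Slc3a2 ranged from 0.03 to 0.96, Lars from 0.15 to 0.72 and Vldlr from 0.18 to 0.49 in the same fits. With the mitochondrial share as a covariate, 0 members had an unadjusted p under 0.05, 10 were above 0 and 22 below, and the median was -0.12. With set B alone 3 members above 0 and 1 below had an unadjusted p under 0.05 (median 0.01), and with set C alone 6 above 0 and 0 below did (median 0.37). Without control_Flcn-Tfeb replicate 2, Eif4ebp1 was called (1.27, adjusted p = 0.0371) among 82 genes called in all.

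Beyond the groups, the members varied from animal to animal, and this variation was first described against Asns. Log2 CPM had the mean of its group and set taken off, and each of the other 34 members was correlated with Asns over the 35 libraries, with permutations within group and set. The median Pearson r was 0.16, with 28 of 34 above 0, while the median over 13696 other genes was -0.0005 and 49.9% of them were above 0. Gars (r = 0.50, Spearman rho = 0.46, permutation p = 0.0999 and 0.0238), the arginine carrier Slc7a1 (r = 0.47, rho = 0.36, permutation p = 0.0445 and 0.0889) and Shmt2 (r = 0.42, rho = 0.26, permutation p = 0.276 and 0.234) were closest to Asns, and 0.46% of the other genes had an r as high as that of Gars. At an unadjusted permutation p under 0.05 by Pearson there was 1 member, beside 3.07% of 13730 genes, and after adjustment over all of these genes 0 members and 0% of genes passed by Pearson or Spearman. Atf4 (r = -0.25) and Ddit3 (r = -0.26) lay at the other end. The median r was 0.20, 0.12 and 0.21 within sets A, B and C, 0.088 without the 2 libraries farthest from the Asns median, and 0.082 with the mitochondrial share and the proximal tubule markers regressed out.

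The libraries also differed in the share of counts from mitochondrial genes, and the members were set against it in the same way, a comparison added after the data were seen. The share is part of the same library total. The share of reads that the counting placed in no gene, available for sets A and C, was low in the same libraries: it was 11% and 9.06% in control_Flcn replicates 4 and 5 (16.5% to 18% in the other 3), 9.07% in control_Flcn-Tfeb replicate 3 (17.8% and 19.9% in the other controls) and 8.78% in control_Flcn-Tfe3 replicate 6 (12.1% to 18.4% in the other set C controls). The part of cell composition or RNA quality in these relations was not tested. The median r of the 35 members was -0.38, with 28 below 0, while the median of the other genes was -0.006. By permutation within group and set, 16 of 35 members had an unadjusted p under 0.05 by Pearson, beside 28.1% of 13731 genes. After adjustment over all these genes, 2 members and 965 genes passed 0.05 by Spearman. By Pearson 4 members passed, beside 9.86% of genes. Of the 4, 3 were synthetases with a negative r: Lars (r = -0.78, rho = -0.64, adjusted permutation p = 0.0111 and 0.0309), Nars (r = -0.73, rho = -0.57, adjusted permutation p = 0.0159 and 0.0608) and Gars (r = -0.63, rho = -0.53, adjusted permutation p = 0.0428 and 0.0735). The fourth was Ddit3, with a positive r of 0.64 (rho = 0.60, adjusted permutation p = 0.0162 and 0.027). Atf4 had an r of 0.55 (rho = 0.41, adjusted permutation p = 0.0846 and 0.2).

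The relations of Lars, Gars, Nars and Atf4 were weak or turned in set B. For Nars r was -0.79 in set A, 0.12 in set B and -0.95 in set C, and for Gars it was -0.75, -0.10 and -0.63. For Lars, r was -0.90 in set A, -0.13 in set B and -0.75 in set C, and for Atf4 it was 0.71, -0.12 and 0.44, while for Ddit3 it was 0.76, 0.31 and 0.59. In 4 libraries, all of them controls (control_Flcn replicates 4 and 5, control_Flcn-Tfeb replicate 3 and control_Flcn-Tfe3 replicate 6), the share lay more than 0.5 log2 units below its group, and with these left out r over the other 31 was -0.57 for Lars, -0.59 for Nars, -0.33 for Gars, 0.28 for Atf4 and 0.46 for Ddit3. Without the 2 libraries farthest from the median share r was -0.72 for Lars, 0.43 for Atf4 and 0.63 for Ddit3. Shmt2, with r = -0.52 (adjusted permutation p = 0.114), had an r of 0.48 in set B and -0.20 with the 4 libraries left out. With the share as a covariate, the Flcn/Tfeb cross had 23 members above 0 and 9 below, with a median log2 fold change of 0.17, and no member was called. The share there was 4.47% in control replicate 3, 9.16% and 10.7% in the other controls, and 10.4% to 11.9% in the DKO. The covariate thus rests largely on that control and is no separate check from leaving it out. Atf4 then had a log2 fold change of -0.43 (unadjusted p = 0.0438) and Shmt2 one of 0.62 (unadjusted p = 0.0456), both at an adjusted p of 0.65 by edgeR and both opposite in sign to their values without the covariate.

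**Figure D4:**
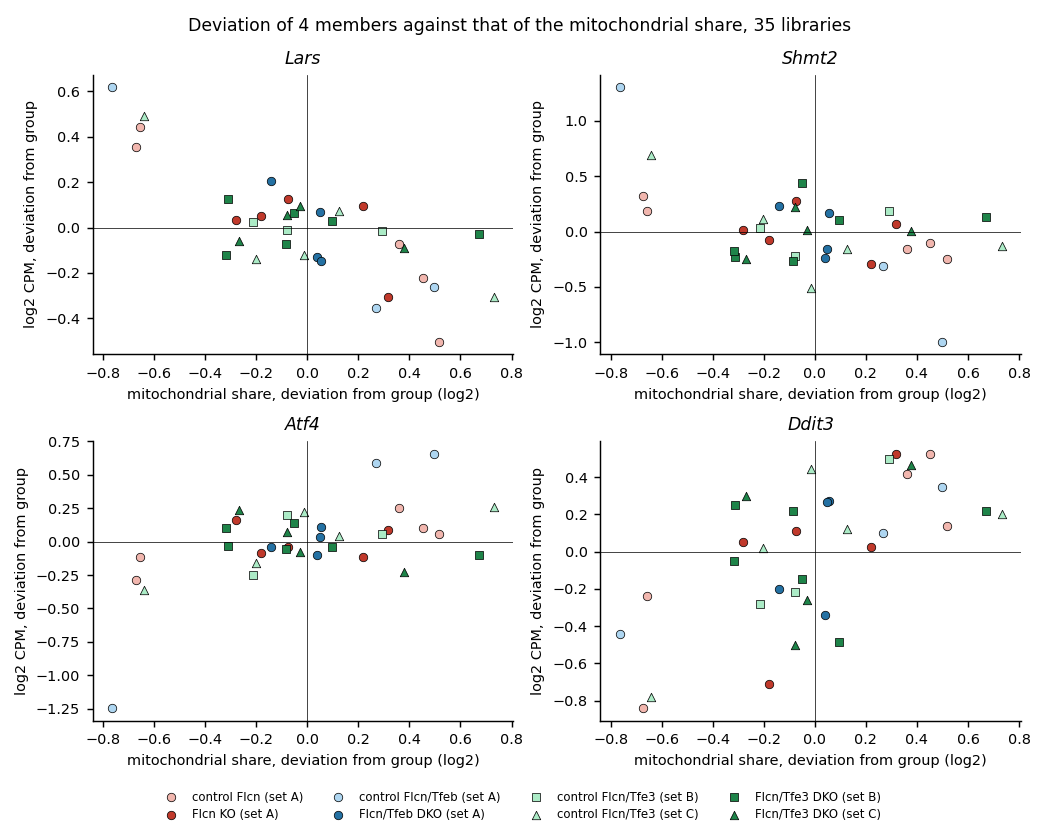
Deviation from the group and set mean of the log2 CPM (vertical axes) of Lars, Shmt2, Atf4 and Ddit3 against that of the log2 mitochondrial share (horizontal axes), 1 point per library, coloured by group and shaped by set. Lars and Shmt2 fall from left to right and Atf4 and Ddit3 climb (r = -0.78, -0.52, 0.55 and 0.64), and the points at the far left, with the lowest shares for their group, are all controls.

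The genes around ATF4 were described as lists beside the members. Of the 7 genes for eIF2 kinases, eIF2 and its phosphatases, which act upstream of ATF4, 0 were called in the 3 crosses by edgeR or DESeq2, and 0 had an unadjusted p under 0.05. Of the 12 chaperones and targets of XBP1 and ATF6, the other arms of the endoplasmic reticulum stress response, 0 were called by either tool, with 1, 1 and 0 at an unadjusted p under 0.05 by edgeR in the 3 crosses in turn, and of 8 further cytosolic tRNA synthetases 0 were called by either tool, with 1, 0 and 0. Of 15 further ATF4 targets, 12, 12 and 13 could be tested in the 3 crosses in turn. Of these, 1 was called by both tools, Gdf15 in the Flcn cross, where edgeR called 0.52% of all genes. At an unadjusted p under 0.05 by edgeR there were 2 (higher, Gdf15 among them), 1 (lower) and 1 (higher), beside 9.07%, 5.07% and 7.15% of all genes. The median log2 fold changes of those tested were -0.04, -0.09 and -0.02. The lowest p of all lists in the Flcn/Tfeb cross was that of Ddit4, an inhibitor of mTORC1, at 41.5, 38 and 62.4 CPM in controls and 33.4, 40.8, 29.7 and 29.1 CPM in the DKO (log2 fold change -0.54, adjusted p = 0.798 by edgeR, and -0.28 without replicate 3), where the highest control was again replicate 3. In the Flcn/Tfe3 cross it was that of Mthfd1l, a mitochondrial one-carbon enzyme (0.53, adjusted p = 0.448).

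Gdf15, a stress hormone of the TGF-beta family, rose in Flcn KO kidneys. It was at 11.9, 16.8, 18.1, 6.19 and 11.4 CPM in the control libraries and at 30.4, 24.7, 28.7, 35.1 and 30.5 CPM in the KO. Every KO library lay above every control. The log2 fold change was 1.26 (SE 0.23, n = 5 and 5, 95% interval 0.77 to 1.74, adjusted p = 0.0119 by edgeR), and it stayed between 1.04 and 1.40 with each library left out in turn. In the Flcn/Tfeb cross Gdf15 was at 34.5, 20.4 and 9.77 CPM in controls and 17.9, 18.2, 22.1 and 37 CPM in the DKO (log2 fold change 0.18, SE 0.41, adjusted p = 0.911), where replicate 3 was the lowest control and the value without it was -0.20. In the Flcn/Tfe3 cross it was at 16.5, 15.3 and 22.4 CPM in the set B controls against 12.4 to 23.2 CPM (median 16.9, n = 6), and at 13.1, 13.9, 10.9, 7.98 and 15.7 CPM in the set C controls against 7.32, 12.6, 11.9 and 6.71 CPM (log2 fold change -0.20, SE 0.18, adjusted p = 0.865). The interaction of the Flcn/Tfe3 effect less the Flcn effect was -1.44 (SE 0.30, unadjusted p = 2.99e-05), the adjusted p being 0.295, and that of the Flcn/Tfeb effect less the Flcn effect was -1.05 (unadjusted p = 0.0354, adjusted p = 0.824), so that neither difference between crosses passed the test by edgeR. DESeq2 called the first of these differences and not the second.

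In the Flcn KO the 3 markers of the thick ascending limb summed to 1176 to 1506 CPM, against 904 to 1164 CPM in controls, with 1 of the 3 called. Umod was the one called (log2 fold change 1.0, adjusted p = 0.000396 by edgeR), Slc12a1 was at 0.18 and Cldn16 at -0.29. The 4 collecting duct markers summed to 260 to 369 CPM against 356 to 417 CPM with 0 called, 2 of the 4 being above 0 (Scnn1g 0.71, Hsd11b2 0.16) and 2 below (Aqp2 -0.48, Atp6v1b1 -0.02). The 6 proximal tubule markers summed to 2623 to 3317 CPM against 3303 to 3956 CPM with 0 called, and the 3 nephron progenitor markers to 6.38 to 18.4 CPM against 18.5 to 37.6 CPM with 0 of 2 tested called. The part of cell composition in the level of Gdf15 was not tested.

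**Figure D5:**
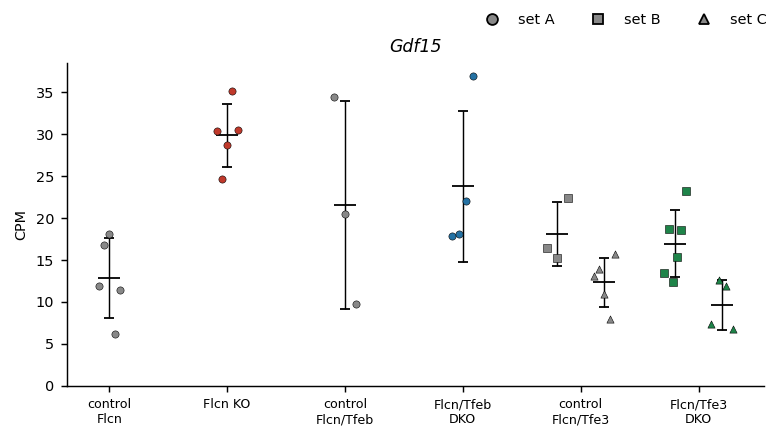
Level of Gdf15 in CPM (vertical axis, linear) in each of the 35 libraries by group (horizontal axis), with circles for set A, squares for set B, triangles for set C, and bars for the mean and SD of each group and set. The 5 Flcn KO libraries, at 24.7 to 35.1 CPM, lie above the 5 controls of their cross, at 6.19 to 18.1 CPM, while DKO and control libraries overlap in the other crosses.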

How the data were processed

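RNA from 35 mouse kidneys was sequenced with QuantSeq 3′ libraries. The authors trimmed reads (bbduk of bbmap 37.31 in the study's methods, Trim Galore in the submitters' processing notes), aligned them to mm10 with STAR, and deposited raw counts per gene made with HTSeq-count 0.9.1. The annotation and strand setting are not given in the sources used here. Of the 31053 genes, 99.6% were in GENCODE M21, which gave the positions. Entries that name no gene were left out, 1 column of a table was not used, and no libraries were left out. No pair of libraries of 1 group and set agreed within sampling noise (63 pairs, chi-square per degree of freedom 2.71 to 39.1).

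CPM were scaled with TMM factors, except marker sums. Genes passing filterByExpr on the libraries compared were tested with edgeR 4.0.16 in R 4.3.3 (quasi-likelihood F test, Benjamini-Hochberg over all genes tested), with the set as a term in the third cross, after tests on simulated data. Correlations were computed with 100000 permutations in numpy 2.4.6, on log2 CPM with a prior count of 2, and adjusted over all genes kept. Intervals are at 95% and cover the spread between libraries, and counting limits cover counting error only. Per library values (ranges and medians in larger groups) are given, in the crosses that name each gene, for Atf4, Asns, Psat1, Trib3, Chac1, Ddit3, members with an unadjusted p under 0.05 in any comparison, and the 2 largest rises and falls per cross. Alternatives were DESeq2 1.42.0, RLE factors, no filter, a mean of at least 10 counts, all libraries in 1 fit, covariates, a replicate block, each set alone and each library left out. Libraries were not treated as paired by replicate number. The members, lists and tests were chosen with earlier results of these data known.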

Additional observations from a re-analysis of the deposited data

Results flagged for a closer look

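Within groups and sets of 4 to 6 libraries, 7 of 216 combinations of group and gene (the 35 members and Gdf15) held 1 library far from the others by Dixon's criterion, which chance meets in about 1 in 20. In the Flcn KO, Atf5 was at 58.3 CPM in replicate 1 (others 39.4 to 43.1 CPM) and Lars at 42.6 CPM in replicate 4 (others 54.2 to 57.8 CPM). In control_Flcn, Asns was at 9.1 CPM in replicate 5 (others 3.72 to 4.76 CPM), and Chac1 at 0.742 CPM, 3 counts, in replicate 4 (others at 0 counts). Yars was at 20.1 CPM in replicate 2 of DKO_Flcn-Tfeb (others 24.4 to 25.2 CPM). In set C, Cebpb was at 8.03 CPM in replicate 8 of DKO_Flcn-Tfe3 (others 4.22 to 4.67 CPM), and Gars at 84.9 CPM in replicate 6 of control_Flcn-Tfe3 (others 58.5 to 61.7 CPM), 1 of the 4 libraries with a low mitochondrial share. The control_Flcn-Tfeb group and the set B controls of control_Flcn-Tfe3, with 3 libraries each, were too small for the criterion.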

How the results depend on the processing

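The count of members called stayed at 0 in the 3 crosses and 3 differences under every alternative run, except that Eif4ebp1 was called (1 member, 1.27, adjusted p = 0.0371 by edgeR) for the Flcn/Tfe3 effect less the Flcn/Tfeb effect without control_Flcn-Tfeb replicate 2, a range of 0 to 1. With the mitochondrial share as a covariate, members above 0 in the Flcn/Tfeb cross went from 9 to 23, signs turning there for Wars (0.16), Atf4 (-0.43), Shmt2 (0.62), Phgdh (0.51), Slc3a2 (0.44), Slc7a5 (0.18) and others, and, for the Flcn/Tfe3 effect less the Flcn/Tfeb effect, for Phgdh (-0.043), Shmt2 (-0.25), Slc3a2 (-0.071) and Lars (-0.13), and the cause was not tested. In the Flcn/Tfeb cross this covariate rests largely on control replicate 3. The median r with Asns was 0.20 in set A, 0.21 in set C, 0.088 without the 2 farthest libraries and 0.082 with the mitochondrial share and proximal tubule level regressed out, and the r of Atf4 with the mitochondrial share was -0.12 in set B. Replicate numbers did not pair libraries (r of same-numbered deviations -0.23 to 0.32, -0.10 to 0.15 and -0.34 to 0.27 in the 3 crosses), and the replicate block left 0 members called in each, with 48, 0 and 2 genes called in all, against 62, 0 and 48 without it. Genes called in all also moved to 113 and 96 with DESeq2 in the Flcn and Flcn/Tfe3 crosses, to 147 and 28 with the mitochondrial share as a covariate, to 95 in the Flcn cross without a filter, to 26 in the Flcn/Tfe3 cross with Xist as a covariate, and to 8 and 569 in sets B and C alone, and from 0 to 459 for the Flcn/Tfe3 effect less the Flcn effect with set C alone. With 1 library left out, genes called in all were 37 to 58 in the Flcn cross and 30 to 53 in the Flcn/Tfe3 cross. Leaving out libraries moved the median of members from -0.11 to -0.01 in the Flcn cross, from -0.33 to 0.05 in the Flcn/Tfeb cross and from -0.01 to 0.09 in the Flcn/Tfe3 cross. In the Flcn/Tfeb cross, 4 members had an unadjusted p under 0.05, against 6 without a filter, 8 with all 35 libraries in 1 fit (3 genes called in all) and 1 to 8 with a library left out (8 without control replicate 2, 7 without control replicate 1). The share of all genes at that p was computed in the main fit only (5.07%), so the counts of the alternatives have no background beside them. Low counts limit Trib3, Chac1 and Slc7a11, and 4 against 3 libraries limit the Flcn/Tfeb cross.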
